A study of Arabidopsis thaliana with 22 samples.

Results

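The cysteine-rich receptor-like kinases (CRKs) of Arabidopsis thaliana were followed as a family of 39 genes, CRK2 to CRK42 without CRK9 and CRK35, chosen by their locus identifiers out of 33529 genes listed in either count table. Of these, 19 lie close together on chromosome 4 in a tandem block of 74.2 kb (AT4G23130 to AT4G23320, chr4:12117491-12191704, TAIR10.1), 8 on the plus strand and 11 on the minus strand. The other 20 lie elsewhere on chromosomes 1, 3, 4 and 5. All 39 had a row in the seedling table, and 37 had one in the leaf table, where CRK25 and CRK33 had no row. CRK33 was at 0 counts in all 18 seedling libraries.

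RNA-seq read counts came from 22 libraries in 8 groups. Leaves of 3-week-old plants were taken from OXAITF1, a line overexpressing the trihelix transcription factor AITF1, with the promoter and the number of lines not stated in the sources used, and from wild-type Col-0, with 2 libraries each. Seedlings, given as 10 days old in the age label and as 14 days old in the growth protocol, were taken from the aitf1-1 asr3-1 double mutant, which carries mutant alleles of the paired trihelix genes, and from Col-0, with 3 libraries for each genotype at 0, 1 and 3 h. The labels leave the agent unnamed and untreated seedlings of the later times were not analysed here, so that time and treatment cannot be told apart. The libraries held 15.3 to 19.4 M counts in leaves and 17.1 to 21.6 M in seedlings, of which 10259 to 45649 fell on the family in a seedling library and 11408 to 17918 in a leaf library. As a check of the labels, the trihelix gene AT3G11100 stood at 2954 and 3839 CPM (counts scaled to library size with edgeR's TMM factors) in OXAITF1 leaves and at 14.4 CPM in both wild-type leaf libraries. Averaged over times, AT3G11100 was lower in double mutant seedlings by a log2 fold change of -0.83, and ASR3 by -0.75. Replicates are not labelled as separate plants or cultures, so each p-value measures a spread between libraries that may be technical.

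A CRK is a membrane protein with a pair of extracellular DUF26 domains, which carry a conserved cysteine motif, and an intracellular serine/threonine kinase domain. The family is known for transcripts that respond to pathogens, salicylic acid, ozone and other sources of reactive oxygen. Forced expression of several members, CRK4, CRK5, CRK19 and CRK20 among them, triggers cell death, and other members act beside the flagellin receptor FLS2, its co-receptor BAK1, the cytoplasmic kinase BIK1 and the oxidase RBOHD. The same DUF26 domain, without a kinase, occurs in the plasmodesmata-located proteins (PDLPs). Many defence promoters, those of CRKs included, hold the W-box, the element bound by WRKY transcription factors.

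The 250 bases before the annotated gene start are printed here for 5 members, because these members span the largest rises at 1 h, the densest W-boxes and the joint fall of a neighbouring pair described further on. Sequences were read from the TAIR10.1 genome on the strand of the gene, 5′ to 3′, and capitals mark the W-box core TTGAC or its reverse complement GTCAA. CRK39 (chr4:2259248-2259497, plus strand) and CRK20 (chr4:12174483-12174732, plus strand) had the largest rises. CRK11 (chr4:12143859-12144108, minus strand) had the most cores. CRK21 (chr4:12180937-12181186, minus strand) and CRK22 (chr4:12181375-12181624, plus strand) fell at 1 h.
CRK39: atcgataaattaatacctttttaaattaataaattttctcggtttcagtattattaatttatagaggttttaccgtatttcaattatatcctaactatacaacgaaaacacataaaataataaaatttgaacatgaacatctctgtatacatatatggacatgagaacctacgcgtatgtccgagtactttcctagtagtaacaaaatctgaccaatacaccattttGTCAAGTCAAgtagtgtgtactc
CRK20: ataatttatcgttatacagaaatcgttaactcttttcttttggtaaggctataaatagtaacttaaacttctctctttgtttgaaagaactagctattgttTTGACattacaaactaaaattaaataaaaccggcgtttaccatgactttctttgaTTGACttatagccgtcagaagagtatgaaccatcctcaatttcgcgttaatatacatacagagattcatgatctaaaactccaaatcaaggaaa
CRK11: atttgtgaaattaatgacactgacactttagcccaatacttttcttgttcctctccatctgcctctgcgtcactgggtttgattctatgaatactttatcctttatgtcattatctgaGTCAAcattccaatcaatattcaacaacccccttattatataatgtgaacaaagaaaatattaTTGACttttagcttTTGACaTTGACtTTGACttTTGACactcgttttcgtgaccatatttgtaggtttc
CRK21: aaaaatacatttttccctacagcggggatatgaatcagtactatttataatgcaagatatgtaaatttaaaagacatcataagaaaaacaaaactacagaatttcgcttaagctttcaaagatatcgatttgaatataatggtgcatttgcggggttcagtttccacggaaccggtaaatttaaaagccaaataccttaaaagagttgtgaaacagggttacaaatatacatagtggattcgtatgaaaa
CRK22: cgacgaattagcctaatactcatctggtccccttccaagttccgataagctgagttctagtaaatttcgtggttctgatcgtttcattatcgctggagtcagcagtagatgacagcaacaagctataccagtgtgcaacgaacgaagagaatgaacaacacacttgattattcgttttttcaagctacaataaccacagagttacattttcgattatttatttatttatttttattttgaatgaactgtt

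CRK11 held 6 W-box cores, of which 5 lay within 69 bases of the gene start. No other protein-coding promoter of this length, among 27438, held more than 6. CRK39 held 2 cores end to end, 23 and 18 bases before its start, and CRK20 held 2, 149 and 94 bases before its start. CRK21 and CRK22 are transcribed away from each other across a gap of 688 bp and held 0 cores in either window. On both strands together, 29 of the 39 CRK promoters (74.4%) held at least 1 core, against 44.9% of all protein-coding promoters, and 16 of 39 (41.0%) held 2 or more, against 14.1%. A core occurred in 14 of 19 block promoters and 15 of 20 others, and 2 or more cores occurred in 10 of 19 block promoters and 6 of 20 others. The window of CRK16, with 3 cores, lies within the neighbouring gene CRK17, and that of CRK28, with 0 cores, within CRK29. GGTTAA, an element that trihelix factors of the GT type bind, with its reverse complement TTAACC, was found in 4 of 39 CRK promoters (10.3%), against 14.6% of all. A match is a string of letters in this window and was not tested as a binding site.

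**Figure D1:**
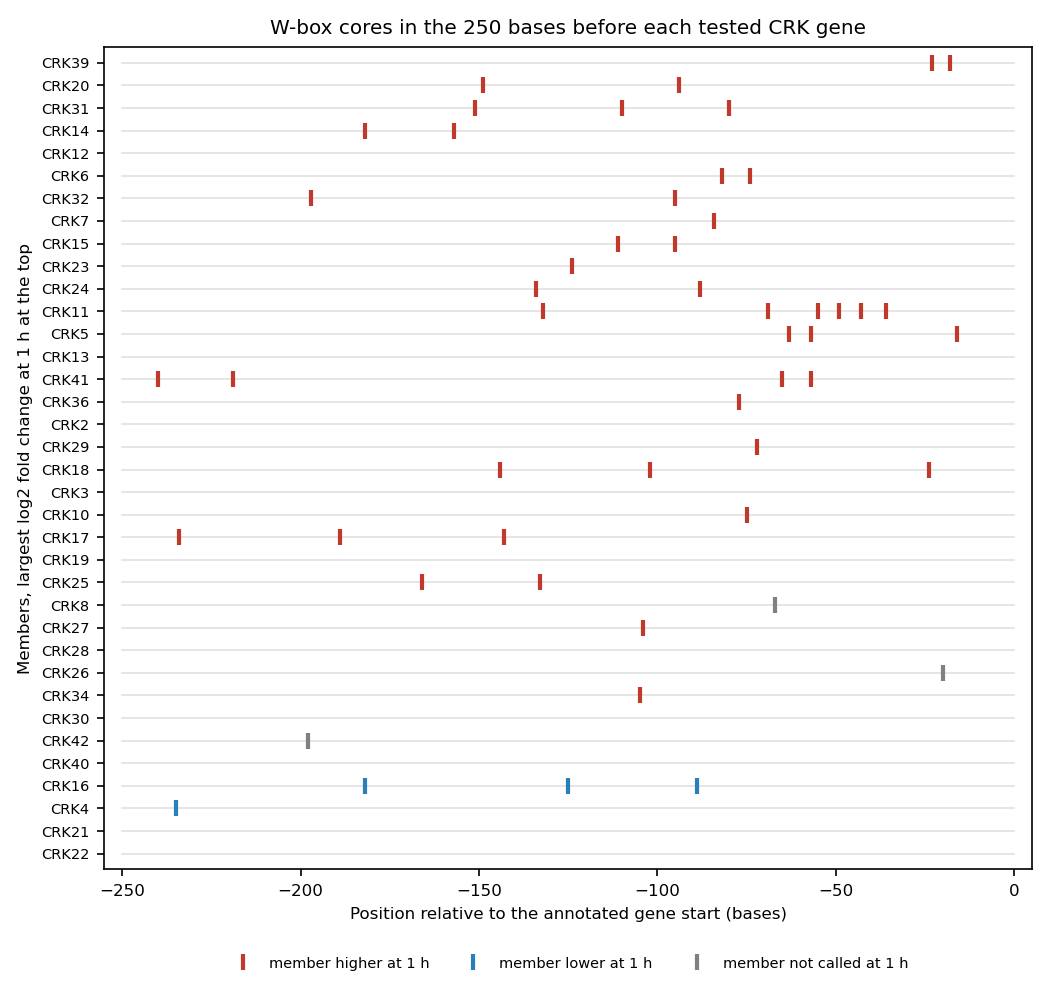
Each row is 1 of the 36 tested members, ordered by its log2 fold change in wild-type seedlings at 1 h against 0 h with the largest at the top, and each tick marks the first base of a W-box core by its distance in bases before the annotated gene start. Of the 27 members called higher at 1 h (red), 21 held a core, of the 4 called lower (blue) 2 did, and of the 5 not called (grey) 3 did. The window of CRK16, called lower, lies within the neighbouring gene CRK17.

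In wild-type seedlings most of the family was higher at 1 h than at 0 h. Of 36 members with enough counts to test, 27 were called higher (adjusted p under 0.05 in edgeR, Benjamini-Hochberg over 21028 genes) and 4 lower, on a background of 48.2% of all tested genes called, 25.2% higher and 23% lower. The rise was at least 2-fold for 24 of the 27. In the tandem block 15 of 19 tested members were higher and 3 lower, with a median log2 fold change of 3.06, and among the other members 12 of 17 were higher and 1 lower, with a median of 1.12. The median over all tested genes was 0.05. CRK37, CRK38 and CRK33 had too few counts to test.

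**Figure D2:**
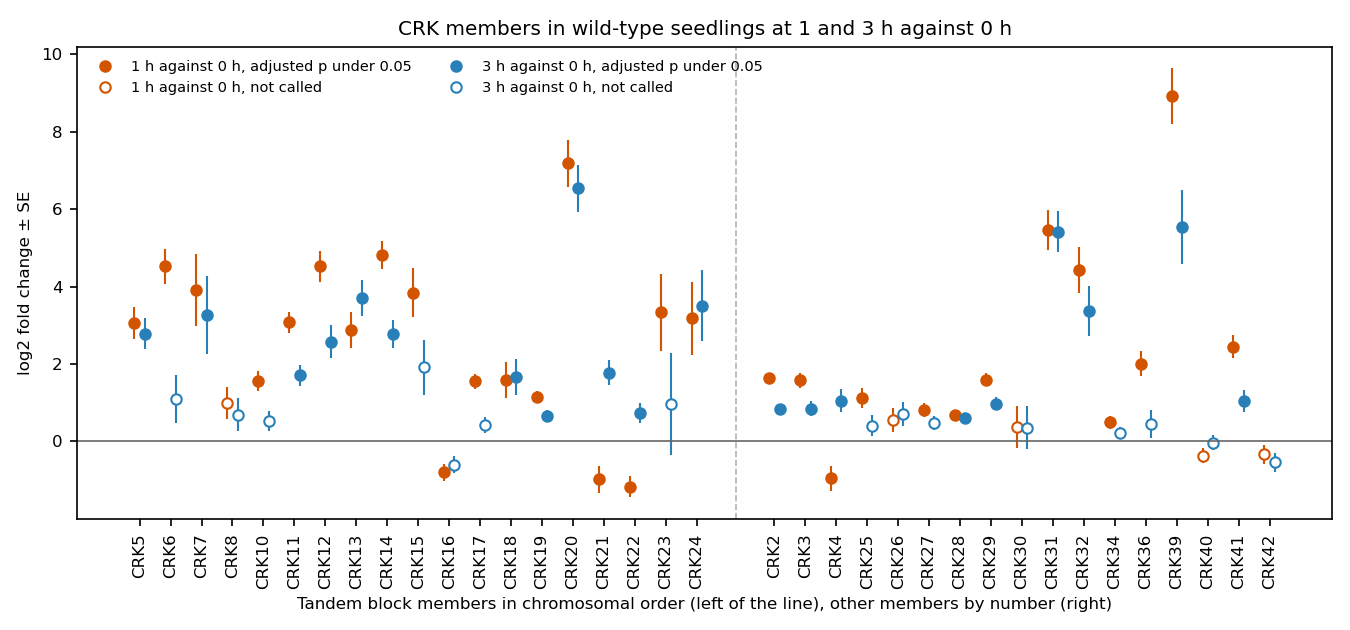
Each point is the log2 fold change (with its SE) of 1 tested member in wild-type seedlings at 1 h (orange) or 3 h (blue) against 0 h, filled where the adjusted p was under 0.05. The block members stand left of the dashed line in chromosomal order, with CRK20 highest at 7.18 and CRK22 lowest at -1.16 at 1 h, and among the other members on the right CRK39 stands highest at 8.91.

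CRK39 (AT4G04540), which lies outside the block, had the largest rise. It stood at 0.172, 0 and 0 CPM in the wild-type libraries at 0 h, at 20.6, 31.3 and 33.7 CPM at 1 h and at 2.25, 4.61 and 1.46 CPM at 3 h. The 3 groups did not overlap, and the 0 h libraries were at or next to 0. With 1727 counts at 1 h and 3 counts at 0 h over each group, the ratio was 539 (95% counting interval 184 to 2614), and the adjusted p was 1.94e-07. At 3 h the ratio to 0 h was 51.7 (17.4 to 254) on 151 counts. CRK39 at 3 h was lower than at 1 h by a log2 fold change of -3.37 ± 0.41 (SE).

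CRK20 (AT4G23280), one of the block members whose forced expression triggers cell death, was scarce at 0 h and abundant at both later times. Its libraries held 0.114, 0.148 and 0.883 CPM at 0 h, 47.7, 37.1 and 86.3 CPM at 1 h and 25.3, 42.1 and 42.4 CPM at 3 h. Every library at 1 and 3 h lay far above every library at 0 h, and the 1 h and 3 h groups overlapped. Against 0 h the log2 fold change was 7.18 ± 0.60 (adjusted p = 2.47e-07 in edgeR) at 1 h and 6.54 ± 0.61 at 3 h. CRK5 (AT4G23130), another member of this group, held 0.572, 1.24 and 2.23 CPM at 0 h, 7.57, 11.8 and 14.8 CPM at 1 h and 6.04, 11.6 and 10.7 CPM at 3 h, without overlap between 0 h and either later time. Its log2 fold change was 3.06 ± 0.41 at 1 h and 2.79 ± 0.41 at 3 h (adjusted p = 1.56e-05 and 0.000134 in edgeR).

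CRK19 (AT4G23270) was one of the most abundant members and had a smaller relative rise. It held 87.1, 101 and 129 CPM at 0 h, 218, 213 and 275 CPM at 1 h and 154, 185 and 162 CPM at 3 h, with no overlap between any of the times. Relative to 0 h the log2 fold change was 1.15 ± 0.16 at 1 h and 0.66 ± 0.16 at 3 h. CRK4 (AT3G45860), the last of the cell-death group and the only one of it outside the block, went the other way at 1 h. It held 8.64, 6.13 and 10.3 CPM at 0 h, 3.11, 4.87 and 4.98 CPM at 1 h and 17.2, 13.9 and 20.9 CPM at 3 h. The 3 groups did not overlap, with 1 h lowest and 3 h highest. CRK4 at 1 h was below 0 h by -0.95 ± 0.32 (adjusted p = 0.0219 in edgeR, 0.0511 to 0.0897 without wild-type 0 h replicate 1 or 3 or without wild-type 1 h replicate 1) and at 3 h above it by 1.05 ± 0.30 (adjusted p = 0.0159, 0.0654 and 0.0678 without wild-type 0 h replicate 2 or 3 h replicate 3).

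CRK13 (AT4G23210), whose overexpression is known to raise salicylic acid and resistance to Pseudomonas, was among the members that stood highest at 3 h. It held 3.89, 3.56 and 11.3 CPM at 0 h, 47.5, 32.4 and 59.1 CPM at 1 h and 62.6, 101 and 80.7 CPM at 3 h. The 0 h libraries lay below all others, and the 3 h libraries lay above those at 1 h. Its log2 fold change was 2.89 ± 0.46 at 1 h and 3.70 ± 0.47 at 3 h against 0 h, while 3 h against 1 h did not pass the test (0.82 ± 0.40, adjusted p = 0.148 in edgeR). Of the 100-base stretches of CRK13, 89.3% occur once in the genome, and for CRK22, CRK6 and CRK8 the shares are 88.1%, 89.0% and 90.04%, so that reads of these 4 members could in part belong to relatives. The other 35 members were at 98.2% or more.

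CRK14 (AT4G23220) and CRK12 (AT4G23200), neighbours of CRK13 in the block, had a sharper peak at 1 h. CRK14 held 1.89, 1.63 and 2.54 CPM at 0 h, 43.8, 61.7 and 66.5 CPM at 1 h and 11.3, 18.7 and 11.6 CPM at 3 h. CRK12 held 1.14, 1.19 and 3.01 CPM at 0 h, 29.3, 43.8 and 50.9 CPM at 1 h and 7.49, 14.8 and 9.96 CPM at 3 h. In both genes the 3 times were separate, with 3 h between the others. At 1 h the log2 fold change against 0 h was 4.82 ± 0.36 for CRK14 and 4.53 ± 0.40 for CRK12 (adjusted p = 9.58e-08 and 3.91e-07 in edgeR). Both fell between 1 and 3 h, by -2.05 ± 0.29 for CRK14 and -1.95 ± 0.33 for CRK12.

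CRK6 (AT4G23140) and CRK7 (AT4G23150), which are known to protect against reactive oxygen outside the cell, were scarce in seedlings. CRK6 held 0.114, 0.148 and 0.104 CPM at 0 h, 1.87, 2.94 and 4.11 CPM at 1 h and 0.267, 0.171 and 0.365 CPM at 3 h, with the 1 h libraries above all others. Its log2 fold change was 4.52 ± 0.45 at 1 h, and 3 h against 1 h was -3.42 ± 0.40 (adjusted p = 1.1e-06 and 3.24e-05 in edgeR). CRK7 held 0.0572, 0.0494 and 0 CPM at 0 h, 0.623, 0.69 and 0.547 CPM at 1 h and 0.16, 0.228 and 0.782 CPM at 3 h. Its 0 h group lay below both later groups, which overlapped each other. On 38 counts at 1 h and 2 at 0 h the ratio was 17.8 (4.59 to 152), and on 22 counts at 3 h it was 11.3 (2.78 to 99.2), with the 3 h call lost when any 1 of 4 wild-type libraries was left out (0 h replicates 1, 2 and 3, adjusted p = 0.0536 to 0.0765, and 3 h replicate 3, 0.164).

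CRK31 (AT4G11470) and CRK32 (AT4G11480), outside the block, also started near 0. CRK31 held 0.172, 0.198 and 0.208 CPM at 0 h, 7.42, 7.63 and 11.3 CPM at 1 h and 5.24, 11.7 and 8.76 CPM at 3 h. Its later times overlapped and stood far above 0 h, with log2 fold changes of 5.46 ± 0.52 at 1 h and 5.42 ± 0.53 at 3 h (adjusted p = 7.71e-07 and 2.78e-06 in edgeR). CRK32 held 0.172, 0 and 0.156 CPM at 0 h, 2.3, 1.98 and 3.01 CPM at 1 h and 0.802, 1.31 and 1.36 CPM at 3 h. The 3 times did not overlap, and the log2 fold changes were 4.44 ± 0.60 at 1 h and 3.37 ± 0.66 at 3 h.

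CRK15 (AT4G23230) and CRK24 (AT4G23320), also of the block, were low throughout. CRK15 held 0.172, 0.346 and 0.467 CPM at 0 h, 2.63, 5.24 and 6.79 CPM at 1 h and 0.107, 1.99 and 1.72 CPM at 3 h. Its 1 h libraries were above all others, and 1 library at 3 h lay below those at 0 h. The log2 fold change was 3.85 ± 0.64 at 1 h and -1.94 ± 0.53 for 3 h against 1 h (adjusted p = 0.000127 and 0.0134 in edgeR, the second 0.0585 without wild-type 1 h replicate 3). CRK24 held 0, 0 and 0.156 CPM at 0 h, 0.671, 0.322 and 0.602 CPM at 1 h and 0.321, 0.683 and 0.991 CPM at 3 h, with the 0 h group below the rest. On 3 counts at 0 h, 32 at 1 h and 37 at 3 h, its ratio to 0 h was 9.98 (3.12 to 50.9) at 1 h and 12.7 (4.01 to 64.2) at 3 h. The CRK24 call at 3 h was lost without wild-type 0 h replicate 1 or 3 h replicate 3 (adjusted p = 0.0511 and 0.0523 in edgeR).

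The 4 members that were lower at 1 h were CRK4, CRK16, CRK21 and CRK22, and they are named here because they were so few, after their values were seen. CRK21 (AT4G23290) held 9.15, 6.13 and 14.8 CPM at 0 h, 2.83, 5.1 and 7.45 CPM at 1 h and 27.1, 40.2 and 35.9 CPM at 3 h. CRK22 (AT4G23300), its divergent neighbour, held 33.9, 26.7 and 36.4 CPM at 0 h, 7.47, 15.2 and 20.7 CPM at 1 h and 44.1, 59.8 and 58.5 CPM at 3 h. Both genes had their lowest libraries at 1 h and their highest at 3 h, and the 0 h and 1 h groups of CRK21 overlapped.

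At 1 h against 0 h the log2 fold change was -0.98 ± 0.35 for CRK21 (adjusted p = 0.0289 in edgeR, 0.0556 to 0.195 without wild-type 0 h replicate 3 or 1 h replicate 1 or 2) and -1.16 ± 0.27 for CRK22 (adjusted p = 0.0023). From 1 to 3 h the change was 2.76 ± 0.34 for CRK21 and 1.91 ± 0.28 for CRK22 (adjusted p = 4.87e-05 and 0.00017). At 3 h CRK21 stood above 0 h by 1.78 ± 0.32 and CRK22 by 0.74 ± 0.26 (adjusted p = 0.0461 in edgeR). The CRK22 call was lost with DESeq2's size factors (0.0502) and in 5 of 6 fits that left out 1 library, namely wild-type 0 h replicate 1, 2 or 3 or 3 h replicate 2 or 3 (adjusted p = 0.0579 to 0.144). CRK16 was lower at 1 h by -0.80 ± 0.22 (adjusted p = 0.00633). It shares 1190 bp with CRK17 on the same strand, and CRK17 was higher at 1 h by 1.55 ± 0.20, so their counts are uncertain.

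**Figure D3:**
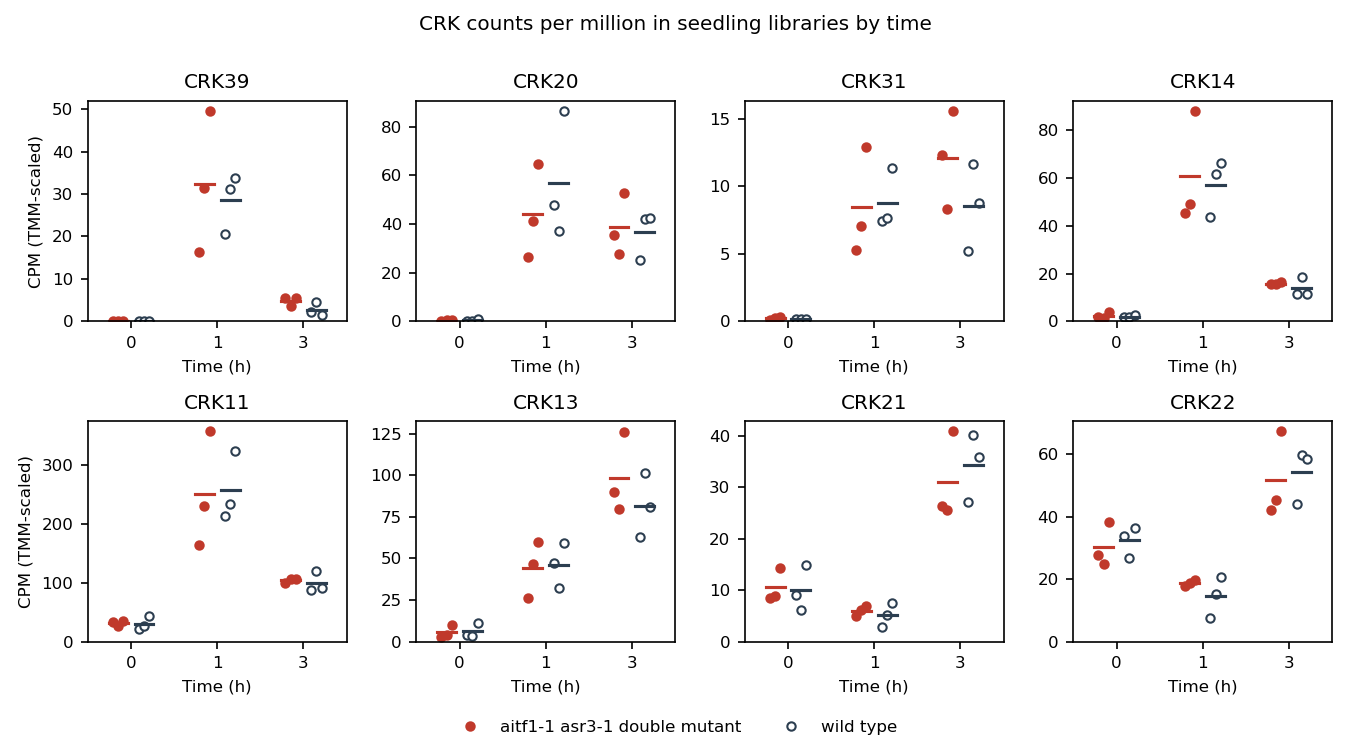
TMM-scaled CPM of 8 members in each seedling library at 0, 1 and 3 h, with aitf1-1 asr3-1 double mutant libraries as filled points left of wild-type libraries as open points, and bars at the group means. CRK39, CRK14 and CRK11 stand highest at 1 h, CRK13, CRK21 and CRK22 at 3 h, and double mutant and wild-type points lie close together at each time.

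The most abundant members per transcript length, over all 18 seedling libraries, were CRK29, CRK19 and CRK11, with means of 88.8, 65.4 and 51.0 CPM per kb. CRK29 held 118, 144 and 176 CPM in the wild type at 0 h, 373, 441 and 505 CPM at 1 h and 243, 335 and 284 CPM at 3 h, and its 3 times did not overlap. CRK11, the member with 6 W-box cores, held 21.5, 27.2 and 42.8 CPM at 0 h, 214, 234 and 325 CPM at 1 h and 88.6, 120.4 and 90.4 CPM at 3 h, likewise with no overlap. The log2 fold change at 1 h was 1.59 ± 0.16 for CRK29 and 3.08 ± 0.28 for CRK11. CRK29 shares 470 bp with CRK28 on the same strand, and CRK11 shares 32 bp with CRK10 on the opposite strand, so part of their reads could belong to either gene.

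Of the members known to act with pattern receptors or the oxidative burst, CRK2, a kinase of RBOHD, rose to 131 ± 20.8 CPM at 1 h, against 42.1 ± 2.05 CPM at 0 h (SD, n = 3 each). CRK36 (AT4G04490), which associates with BIK1, held 4.996 ± 1.55 CPM at 1 h and 1.24 ± 0.218 CPM at 0 h. CRK28, which associates with BAK1 and FLS2, held 144 ± 8.74 CPM at 1 h and 88.6 ± 14.8 CPM at 0 h. All 3 were called higher at 1 h, with log2 fold changes of 1.64 ± 0.14, 2.01 ± 0.33 and 0.69 ± 0.12. At 3 h CRK2 and CRK28 were still called higher than at 0 h, and CRK36 was not (0.46 ± 0.36, adjusted p = 0.376 in edgeR). CRK8, CRK26, CRK30, CRK40 and CRK42 were called in neither direction at 1 h.

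At 3 h against 0 h in the wild type 21 of 36 members were called higher and 0 lower in edgeR, on a background of 26.6% called, 15.4% higher and 11.1% lower. The block gave 12 of 19 with a median log2 fold change of 1.71, and the other members 9 of 17 with a median of 0.72. DESeq2 called 1 member lower, CRK16, where it called 2775 of 25945 genes lower in all. At 3 h against 1 h, 3 members were higher (CRK4, CRK21 and CRK22) and 14 lower, on a background of 24.7% called, 12.9% higher and 11.8% lower. The summed level of the block's 19 members was 253 ± 63.7 CPM at 0 h, 907 ± 191 CPM at 1 h and 624 ± 95.4 CPM at 3 h, and that of the 20 others was 425 ± 66.8, 1009 ± 130 and 707 ± 69.9 CPM at the same times. Within each set the 3 times did not overlap. Wild-type comparisons over time share libraries, so they are not independent of each other.

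In double mutant seedlings the family moved over time much as in the wild type. At 1 h against 0 h, 26 of 36 members were higher and 1 lower, on a background of 39.5% called, 20.3% higher and 19.2% lower, and at 3 h against 0 h 20 were higher and 0 lower in edgeR, on a background of 19.5% called, 13.2% higher and 6.25% lower. The block gave 15 of 19 higher at 1 h and 12 of 19 at 3 h, and the other members 11 and 8 of 17. All 26 members higher at 1 h in the double mutant were among the 27 of the wild type (96.3% of the wild-type list), with CRK34 called in the wild type alone, where its call was lost without 0 h replicate 1 or 1 h replicate 1 (adjusted p = 0.112 and 0.119 in edgeR). At 3 h 19 members were shared, which is 95.0% of the double mutant's list and 90.5% of the wild type's. These comparisons have no library in common. The matching overlap over all tested genes is not given here, and the genotype by time interaction called 0 of 21028 genes at either time. The overlap is therefore not read as a trait of the family.

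CRK39 held 0.0585, 0 and 0.0949 CPM in double mutant libraries at 0 h, 16.4, 31.4 and 49.4 CPM at 1 h and 5.41, 3.68 and 5.51 CPM at 3 h. Its ratio to 0 h was 657 (224 to 3187) at 1 h and 98.3 (33.3 to 479.8) at 3 h, each on 3 counts at 0 h. CRK20 held 0.0585, 0.445 and 0.522 CPM at 0 h, 26.3, 41.4 and 64.9 CPM at 1 h and 35.5, 27.8 and 52.6 CPM at 3 h. In both genes no later library came near those at 0 h. CRK31 held 0.117, 0.223 and 0.332 CPM at 0 h, 5.32, 7.06 and 12.9 CPM at 1 h and 12.3, 8.35 and 15.6 CPM at 3 h. CRK14 held 1.76, 1.29 and 3.79 CPM at 0 h, 45.4, 49.3 and 88.0 CPM at 1 h and 15.5, 15.7 and 16.3 CPM at 3 h. At 1 h the log2 fold changes were 6.91 ± 0.60 for CRK20, 5.16 ± 0.50 for CRK31 and 4.73 ± 0.35 for CRK14.

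CRK24 was at 0 counts in all 3 double mutant libraries at 0 h and held 0.103, 0.675 and 0.51 CPM at 1 h and 0.706, 0.83 and 1.51 CPM at 3 h. Against a floor of 3 counts over the 0 h group it was at least 8.68-fold higher at 1 h and at least 19.9-fold higher at 3 h. CRK15 held 0, 0.356 and 0.19 CPM at 0 h, 3.62, 4.46 and 4.49 CPM at 1 h and 1.98, 2.28 and 2.15 CPM at 3 h, in 3 separate groups. CRK7 held 0, 0 and 0.0949 CPM at 0 h, 0.362, 0.519 and 1.02 CPM at 1 h and 0.659, 0.208 and 0.696 CPM at 3 h, and its ratio to 0 h was 19.3 (4.97 to 165) at 1 h on 2 counts at 0 h. CRK32 held 0.176, 0.178 and 0.0474 CPM at 0 h, 1.39, 1.76 and 3.31 CPM at 1 h and 1.22, 0.934 and 2.26 CPM at 3 h.

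CRK13 held 2.69, 4.05 and 10.2 CPM in the double mutant at 0 h, 26.4, 46.9 and 60.05 CPM at 1 h and 90.04, 79.7 and 126 CPM at 3 h, again highest at 3 h. Its log2 fold change was 4.10 ± 0.47 at 3 h against 0 h and 1.15 ± 0.40 at 3 h against 1 h (adjusted p = 0.0447 in edgeR and 0.085 in DESeq2), the second also lost with library totals alone (0.0512) and without 1 h replicate 1 or 2 or 3 h replicate 1, 2 or 3 (0.0598 to 0.157). At 3 h against 1 h in the double mutant 4 members were higher and 13 lower, on a background of 26% called, 13.8% higher and 12.2% lower. The other 3 higher members were CRK4, CRK21 and CRK22, as in the wild type, with log2 fold changes of 1.68 ± 0.31, 2.37 ± 0.34 and 1.46 ± 0.27. CRK21 held 8.43, 8.86 and 14.3 CPM at 0 h, 4.96, 6.18 and 6.83 CPM at 1 h and 26.5, 25.7 and 41.0 CPM at 3 h. CRK22 held 27.6, 24.8 and 38.3 CPM at 0 h, 17.8, 18.7 and 19.7 CPM at 1 h and 42.1, 45.2 and 67.5 CPM at 3 h. In both genes the 1 h libraries lay below all others, although the step from 0 to 1 h did not pass the test in edgeR in the double mutant. DESeq2 called both lower at 1 h, by -0.84 for CRK21 and -0.71 for CRK22 (adjusted p = 0.0368 and 0.0285), and so did edgeR with the replicate number as a block (-0.79 and -0.67, adjusted p = 0.0121 and 0.016).

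CRK4 held 11.8, 6.68 and 12.4 CPM in the double mutant at 0 h, 3.56, 3.74 and 8.16 CPM at 1 h and 15.7, 14.3 and 19.8 CPM at 3 h, and it was the 1 member called lower at 1 h. The log2 fold change was -0.99 ± 0.31 (adjusted p = 0.0191 in edgeR, 0.0651 to 0.0814 without double mutant 0 h replicate 1 or 3 or 1 h replicate 1 or 2). CRK6 held 0.0585, 0.312 and 0.0949 CPM at 0 h, 2.07, 2.13 and 2.34 CPM at 1 h and 0.0941, 0.208 and 0.116 CPM at 3 h. CRK12 held 2.93, 1.91 and 4.7 CPM at 0 h, 31.9, 50.2 and 65.9 CPM at 1 h and 11.3, 9.6 and 10.4 CPM at 3 h. CRK23 held 0.0585, 0.089 and 0.142 CPM at 0 h, 0.568, 0.467 and 2.34 CPM at 1 h and 0, 0.0519 and 0.116 CPM at 3 h, and on 3 counts at 3 h against 66 at 1 h the 1 h level was 21.8 times that at 3 h (7.15 to 108). All 3 of these genes peaked at 1 h with no overlap with 0 or 3 h.

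The double mutant was then set against the wild type at each time. No member passed the test at 0, 1 or 3 h in edgeR, on backgrounds of 0.357%, 0.262% and 0.276% of genes called (0.0618%, 0.0666% and 0.0523% lower). At an unadjusted p under 0.05 were 1, 2 and 2 members, and 1189, 1385 and 1400 of all 21028 tested genes. DESeq2 called 0, 1 and 1, on backgrounds of 0.428%, 0.424% and 0.389% of genes called, and the member was CRK28 at both later times. The genotype by time interaction called 0 of 36 members at 1 h and at 3 h in edgeR and in DESeq2, on a background of 0% of genes called. In edgeR 0 members were at an unadjusted p under 0.05 at either time, against 474 and 853 of all 21028 tested genes. The summed block level in double mutant and wild-type seedlings was 271 ± 44.6 and 253 ± 63.7 CPM at 0 h, 884 ± 285 and 907 ± 191 CPM at 1 h, and 666 ± 89.8 and 624 ± 95.4 CPM at 3 h, so that the genotypes differed by less than the spread between replicates.

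CRK28 (AT4G21400), a member that associates with BAK1 and FLS2, was the exception in edgeR when the times were averaged. DESeq2 also called it lower at 1 h (-0.49, adjusted p = 0.0331) and at 3 h (-0.50, adjusted p = 0.0308). At 0 h it held 68.2, 63.5 and 70.7 CPM in double mutant seedlings, against 75.2, 86.2 and 105 CPM in the wild type. At 1 h it held 86.9, 101 and 119.9 CPM in the double mutant, against 134, 150.2 and 147 CPM in the wild type. The 3 h libraries held 93.8, 89.5 and 106 CPM in the double mutant, against 127, 149.8 and 129.6 CPM in the wild type. Every double mutant library lay below every wild-type library of the same time. The log2 fold change was -0.39 ± 0.12 at 0 h, -0.49 ± 0.12 at 1 h and -0.49 ± 0.12 at 3 h, and averaged over times it was -0.46 ± 0.07 (adjusted p = 0.00162 in edgeR, 0.000387 to 0.00599 over the fits that left out 1 library each).

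CRK28 was 1 of 36 members called in that averaged comparison, on a background of 1.11% of all tested genes, 0.357% lower and 0.751% higher. CRK29, its neighbour, which shares 470 bp with it, held 129 ± 3.21 and 146 ± 29.2 CPM at 0 h, 373 ± 80.2 and 440 ± 65.9 CPM at 1 h, and 264 ± 14.2 and 287 ± 45.9 CPM at 3 h, each in the double mutant and then in the wild type. The genotypes overlapped for CRK29 at each time, and its averaged log2 fold change of -0.18 ± 0.09 did not pass the test (adjusted p = 0.466). In both genotypes CRK28 rose with time, by 0.60 ± 0.12 at 1 h in the double mutant and 0.69 ± 0.12 in the wild type.

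**Figure D4:**
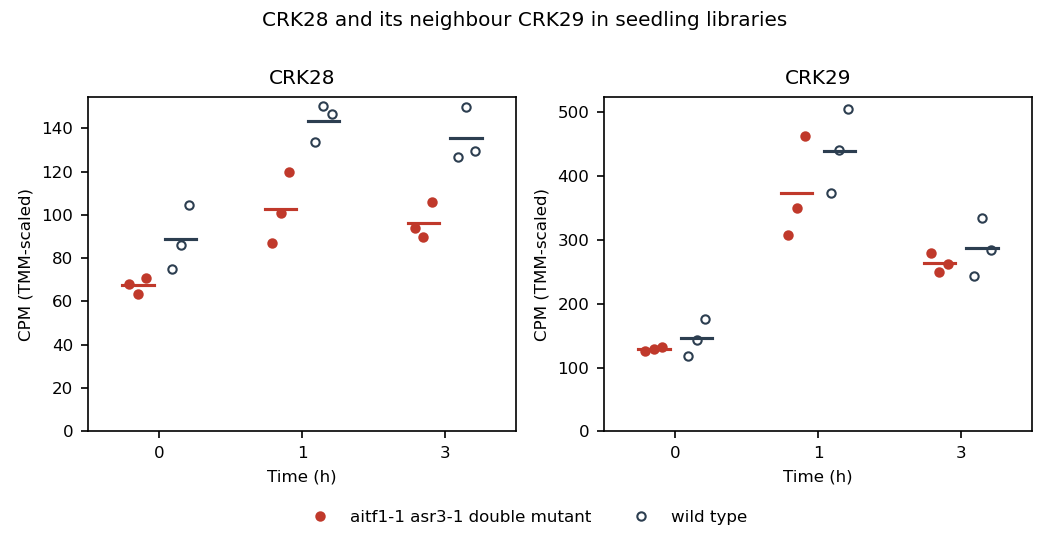
TMM-scaled CPM of CRK28 (left) and CRK29 (right) in each seedling library at 0, 1 and 3 h, with aitf1-1 asr3-1 double mutant libraries as filled points left of wild-type libraries as open points, and bars at the means of 3 libraries. For CRK28 the double mutant points lie below the wild-type points at every time, with an averaged log2 fold change of -0.46, while for CRK29 the genotypes overlap.

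In leaves members were called in both directions between OXAITF1 and the wild type. Of 32 tested members 10 were called higher and 3 lower in edgeR, on a background of 19.8% of all tested genes called, 9.36% higher and 10.4% lower. The block gave 6 higher and 2 lower of 18 tested, with a median log2 fold change of 0.22, and the other members 4 higher and 1 lower of 14, with a median of 0.64, against 0.05 over all genes. With library totals alone, where the median of all tested genes was 0.46, the counts were 16 higher and 2 lower, on 5287 genes higher and 1127 lower in all. CRK20, CRK26, CRK30, CRK31 and CRK32 had too few counts to test in leaves. The calls depended on the wild-type pair of libraries and were lost with either wild-type library left out. Calls of genes outside the family were lost as well, so the loss was not particular to the CRKs. The spread then came from the OXAITF1 pair alone, whose libraries differed more (chi-square per degree of freedom 72.3) than the wild-type pair (11.5). The family's median log2 fold change was 0.74 without wild-type replicate 1 and 0.38 without wild-type replicate 2, against 0.42 with all libraries.

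CRK37 (AT4G04500), outside the block, had the largest rise, with 15.7 and 12.4 CPM in OXAITF1 leaves, against 0.897 and 0.633 CPM in wild-type leaves. The groups were far apart, and the log2 fold change was 4.19 ± 0.30 (adjusted p = 0.0141 in edgeR). CRK38, its neighbour by locus number, held 1.75 and 2.12 CPM in OXAITF1 and 0.299 and 0.141 CPM in the wild type, a log2 fold change of 3.11 ± 0.52. In seedlings both genes had too few counts to test. CRK36, which associates with BIK1 and lies in the same cluster, held 22.8 and 16.4 CPM in OXAITF1 and 2.69 and 2.32 CPM in the wild type, a log2 fold change of 2.97 ± 0.26.

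In the block CRK23 and CRK24, which end next to each other, had low levels in the wild type. CRK23 held 7.53 and 6.16 CPM in OXAITF1, against 0.374 and 0.562 CPM in the wild type, and CRK24 held 11.5 and 6.12 CPM in OXAITF1, against 1.34 and 1.90 CPM in the wild type. The groups did not overlap for either gene, with log2 fold changes of 3.84 ± 0.34 for CRK23 and 2.43 ± 0.43 for CRK24. CRK6, the member linked to protection against extracellular reactive oxygen, held 67.7 and 76.3 CPM in OXAITF1, against 13.2 and 14.1 CPM in the wild type, a log2 fold change of 2.40 ± 0.15 (adjusted p = 0.0141). CRK7, CRK8 and CRK15 were also called higher, with log2 fold changes between 1.21 and 2.15.

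CRK4, of the cell-death group, held 94.3 and 106 CPM in OXAITF1, against 14.3 and 30.8 CPM in the wild type, a log2 fold change of 2.15 ± 0.39 (adjusted p = 0.0309). CRK5 and CRK19 of that group were not called, and CRK20 was too low to test, at 0.777 and 0.414 CPM in OXAITF1 and 0.149 and 0.141 CPM in the wild type. CRK21 had the largest fall, with 6.27 and 6.67 CPM in OXAITF1, against 59.0 and 79.8 CPM in the wild type. The groups were far apart, with a log2 fold change of -3.42 ± 0.21 (adjusted p = 0.0141). Its divergent neighbour CRK22 held 25.1 and 23.9 CPM in OXAITF1, against 43.2 and 51.7 CPM in the wild type (-0.95 ± 0.15, adjusted p = 0.0245). With library totals alone the CRK22 call was lost, at -0.53 (adjusted p = 0.0554). CRK41 held 13.0 and 14.6 CPM in OXAITF1, against 40.6 and 32.3 CPM in the wild type (-1.40 ± 0.18, adjusted p = 0.018).

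**Figure D5:**
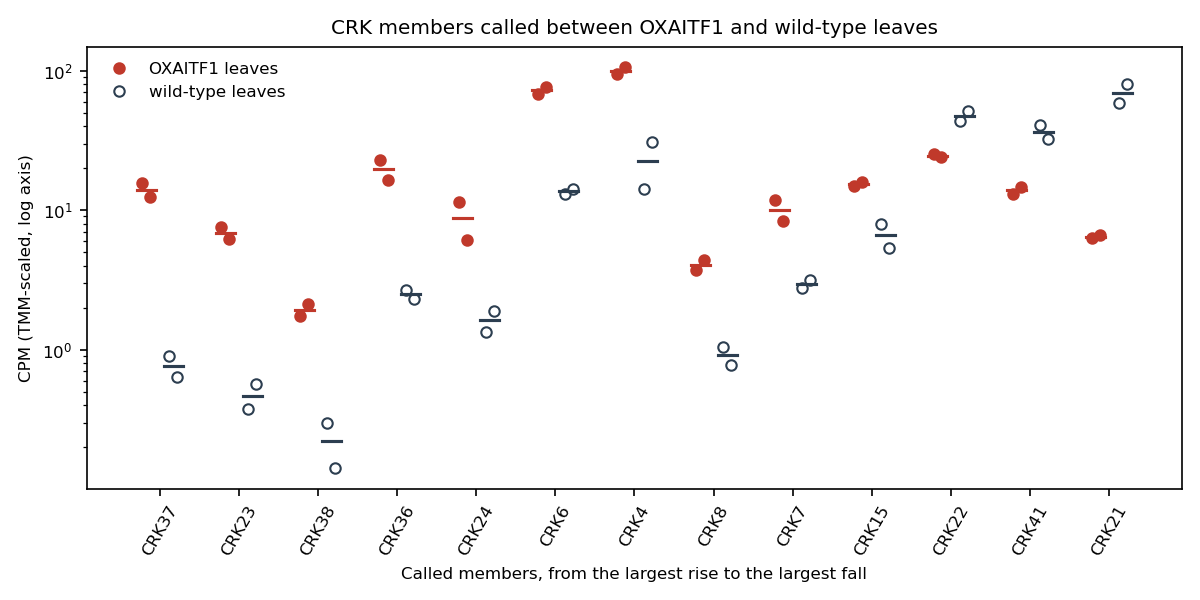
TMM-scaled CPM on a log axis for the 13 members called between the leaf groups, with the 2 OXAITF1 libraries as filled points left of the 2 wild-type libraries as open points, and bars at the means. The members run from CRK37 with a log2 fold change of 4.19 on the left to CRK21 with -3.42 on the right.

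CRK10 (AT4G23180) was the most abundant member in leaves per transcript length, at 40.8 ± 10.8 CPM per kb in OXAITF1 and 103 ± 37.5 CPM per kb in the wild type (SD, n = 2 each). Its libraries held 84.5 and 123 CPM in OXAITF1, against 329 and 194 CPM in the wild type. The groups did not overlap, but the fall of -1.33 ± 0.34 did not pass the test in edgeR (adjusted p = 0.0588), while DESeq2 called it (0.00207). CRK19, next to CRK4 in abundance over all leaf libraries, held 42.6 and 67.4 CPM in OXAITF1, against 66.5 and 69.0 CPM in the wild type, and the groups overlapped. The summed level of the block was 444 ± 41.0 CPM in OXAITF1 and 603 ± 75.6 CPM in the wild type. Without the most abundant member of each library it was 330.3 and 349.6 CPM in OXAITF1, against 328 and 356 CPM in the wild type.

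A few members lay near the limit of detection in leaves. CRK26 had 17 counts over the OXAITF1 libraries and 0 over the wild-type libraries, so that it was at least 3.70-fold higher in OXAITF1. CRK27 had 43 counts in OXAITF1 and 3 in the wild type, a ratio of 9.35 (2.99 to 47.1), and did not pass the test (adjusted p = 0.0811 in edgeR). CRK30 had 2 counts in OXAITF1 and 14 in the wild type, so that the wild-type level was 10.7 times that of OXAITF1 (2.47 to 97.3). These intervals and floors cover counting error only.

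Some members were called in both leaves and seedlings. Of the 10 members higher in OXAITF1 leaves, 8 could be tested in seedlings, and 6 of these 8 (75.0%) were among the 27 of 36 family members (75.0%) called higher at 1 h in the wild type, the same share as in the family as a whole. Those 6 were 22.2% of the seedling list. CRK4 was among the 4 lower. CRK21 and CRK22, called lower in OXAITF1 leaves, were 2 of the 4 called lower at 1 h and were called higher at 3 h against 0 h, with the leaf calls, that of CRK21 at 1 h and that of CRK22 at 3 h lost in the fits named above. All 10 members higher in OXAITF1 leaves held a W-box core in the 250-base window, and of the 3 lower members 1 did, CRK41, which held 4. Among the 19 members tested but not called in leaves, 12 held one, and of the 5 too low to test 4 did. The shares with a core were 74.4% over the whole family and 44.9% over all protein-coding promoters. A link between cores and leaf calls was not tested. Leaf and seedling tables were made with different gene sets, and their levels were not compared.

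Genes that work beside the CRKs were read in the same comparisons. In the wild type at 1 h against 0 h, where 25.2% of all tested genes were called higher and 23% lower, 7 of 8 genes of receptor complexes and the oxidative burst were higher and 0 lower, with a median log2 fold change of 1.33, against 0.05 over all tested genes. Among them were RBOHD, the oxidase that makes extracellular superoxide (1.86), the peroxidase PRX33 (2.03), BAK1 (1.37) and FLS2 (1.28), with RBOHF the exception. Of 7 tested salicylic acid and W-box regulators, 6 were higher (median 0.94), led by WRKY40 (3.31), PR5 (1.76) and WRKY18 (1.63). Of the 8 PDLPs, which share the DUF26 domain, PDLP5 (1.07) and PDLP6 (0.47) were higher and 0 were lower (median 0.28), a count of 2 of 8 that is close to the background of 25.2%. In OXAITF1 leaves, on a background of 9.36% of genes higher and 10.4% lower, 0 of the 8 receptor and burst genes were called in edgeR (2 at an unadjusted p under 0.05, and 1 called by DESeq2), with a median of -0.13, and PDLP2 (-1.74) and PDLP3 (-2.04) were the 2 of 7 PDLPs called lower (median -0.67). Of 9 salicylic acid and W-box genes 4 were higher in OXAITF1 leaves (median 1.04), the defence marker PR1 (7.92), PR2 (3.16), the salicylic acid synthesis enzyme ICS1 (1.40) and WRKY70 (1.04). In the double mutant averaged over times 0 of the 23 tested genes of these 3 lists were called in edgeR, with 2 at an unadjusted p under 0.05, and 0 were called by DESeq2.

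Markers of tissues also differed in these comparisons. In OXAITF1 leaves, where 10.4% of all tested genes were called lower, 3 of 3 mesophyll genes were lower, RBCS1A by -1.99, LHCB1.2 by -1.57, and LHCB2.1, with a summed level of 11029.6 to 12530.3 CPM in OXAITF1 and 42901 to 42969 CPM in the wild type. Of 3 guard cell genes 1 was lower (ALMT12 by -1.60), and their sum was 30.8 to 32.6 CPM in OXAITF1 and 50.4 to 55.7 CPM in the wild type. Neither phloem gene was called in edgeR (both had an unadjusted p under 0.05, and DESeq2 called 1), with a sum of 167 to 254 CPM in OXAITF1 and 335 to 367 CPM in the wild type. Of the 4 root genes 0 were tested in leaves in edgeR. Among them COBL9 and CASP1 had 4 and 20 counts over the OXAITF1 libraries and 0 and 1 over the wild-type libraries. Of the 2 senescence genes SAG12 and SAG13, only SAG13 was tested in leaves, and it was higher by 4.60. SAG13 held 27.2 and 4.97 CPM in OXAITF1 and 0.822 and 0.492 CPM in the wild type. PR1 likewise differed between the OXAITF1 libraries, at 116 and 10.3 CPM.

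In wild-type seedlings at 1 h against 0 h, on the background of 23% of genes lower and 25.2% higher, 3 of 3 mesophyll genes fell by 0.54 to 0.70 on the log2 scale, and their sum was 1989 to 3279.8 CPM at 1 h and 3408 to 4482 CPM at 0 h. MYB60, 1 of 3 guard cell genes, was lower by -0.97, and the sum of the 3 was 13.5 to 29.2 CPM at 1 h and 28.5 to 39.1 CPM at 0 h. The root genes EXPA7 (0.75) and PLT1 (0.70) were the 2 of 4 called higher, with a sum of 54.6 to 56.5 CPM at 1 h and 21.2 to 50.6 CPM at 0 h. Of the 2 phloem genes 0 were called in edgeR or DESeq2 (0 at an unadjusted p under 0.05 in edgeR and 1 in DESeq2), at 145 to 185 CPM at 1 h and 184 to 241 CPM at 0 h, and SAG12 was at 0 counts in all seedling libraries. The part of these genes' tissues in the CRK values was not tested, and in whole leaves and seedlings fewer cells of a type and less RNA per cell cannot be told apart.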

How the data were processed

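RNA-seq of 22 libraries was analysed from the deposited read counts per gene, whole numbers that the authors had not normalized, in 1 file per library and 1 table per tissue. The submitters' processing notes name HISAT2 2.1.0, featureCounts, Subread 1.6.5 and TAIR10. Annotation, strand setting and treatment of reads with several matches are not stated in the sources used. There were 23318 genes listed for leaves and 33318 for seedlings. Library totals were 15.3 to 19.4 M counts in leaves and 17.1 to 21.6 M in seedlings, and replicates differed by more than sampling noise.

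Counts were tested with edgeR 4.0.16 in R 4.3.3: filterByExpr, TMM factors, glmQLFit and glmQLFTest, two-sided, with Benjamini-Hochberg adjustment over all tested genes (18639 in leaves, 21028 in seedlings) and a threshold of 0.05. The 4 leaf libraries were fitted alone (residual degrees of freedom 2), and a second fit held all 18 seedling libraries (12). The CPM values given are TMM-scaled, and levels per kb divide them by exon length. Ratios on 1 to 3 counts have exact 95% counting intervals, and a group at 0 was given a floor of 3 counts over the group. Promoters and the share of 50- and 100-base stretches that occur once were read from TAIR10.1. The scripts were tested on simulated data. Alternatives were DESeq2 1.42.0, its size factors in edgeR, library totals alone, no filter, a replicate block and the omission of each library in turn.

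Values of every library were given for called members among the 8 largest changes of a comparison and for the 3 members most abundant per kb of a tissue. The members, the gene lists and these rules were chosen with earlier results of these data known. The protein sequences of the family were not analysed here.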

Additional observations from a re-analysis of the deposited data

How the results depend on the processing

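No result reversed its direction, and of the 147 calls of single members 134 were kept with the replicate block, 146 with DESeq2, 146 with its size factors, 145 with library totals alone and 147 without the filter. In leaves the replicate block left 0 members higher and 0 lower (0 block and 0 other members in either direction), with a lowest adjusted p of 0.0527 in the family. That fit called 0 of all 18639 tested genes, so the loss was not particular to the family. The number of an OXAITF1 or wild-type leaf library is not known to mark a shared plant or day. The deviations of same-numbered leaf libraries had r = -0.0867. With 2 libraries in a group their deviations mirror each other, so this r cannot decide whether the leaf libraries are paired. In seedlings 13 of 18 libraries correlated best with their own number, and the median r was 0.0726 for the same number and -0.0487 for other numbers, a hint from the data that numbers may mark a shared source. The labels do not say so, and r of same-numbered libraries ran from -0.221 to 0.365 rather than above 0.1 in every pair, so the numbers were not taken to pair the seedling libraries. With library totals alone 16 members were higher in OXAITF1 leaves, 8 of them outside the block, and 2 were lower, 1 of them in the block, while the median log2 fold change of all tested genes was 0.46 in place of 0.05. With 1 leaf library left out, the count was 0 to 13 members higher and 0 to 6 lower, with 0 to 7 higher and 0 to 4 lower in the block and 0 to 6 higher and 0 to 2 lower outside it. Both numbers were lowest without either wild-type library. In each of these fits an arm held 1 sample assumed to vary like the other arm. In wild-type seedlings 1 member, of the block, was lower at 3 h than at 0 h with the replicate block, DESeq2, its size factors or library totals alone, in place of 0, and 0 to 1 were when 1 library was left out. At 1 h against 0 h 2 to 5 members were lower in the wild type when 1 library was left out, 0 to 2 of them outside the block. In the double mutant at 1 h against 0 h 2 members were lower with DESeq2's size factors or library totals alone, 1 of them of the block, and 3 with the replicate block or DESeq2, 2 of them of the block. When 1 library was left out 0 to 3 were lower, with 0 to 1 in the block and 0 to 2 outside it. At 3 h against 1 h in the double mutant 1 to 2 members outside the block were higher when 1 library was left out. Between double mutant and wild type, DESeq2 called 1 member lower at 1 h and at 3 h, in each case CRK28, which lies outside the block. The cause of these shifts was not tested. In seedlings 25 of 134 calls of single members were lost in at least 1 of the alternatives, and in leaves all 13 were. Depth limits CRK33, CRK37 and CRK38 in seedlings and CRK20, CRK26, CRK30, CRK31 and CRK32 in leaves, which were too low to test.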

Other observations

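The tandem block holds 3 pairs of genes transcribed away from each other, CRK5 and CRK6 with 1148 bp between them, CRK18 and CRK19 with 874 bp and CRK21 and CRK22 with 688 bp. In wild-type seedlings at 1 h against 0 h, both members of each pair were called in the same direction, in a block where 15 of 19 tested members were called higher and 3 lower. CRK5 and CRK6 were higher, with log2 fold changes of 3.06 and 4.52. CRK18 and CRK19 were higher by 1.59 and 1.15, with the CRK18 call lost without wild-type 1 h replicate 3 (adjusted p = 0.0549 in edgeR). CRK21 and CRK22 were lower, with -0.98 and -1.16, and the CRK21 call was lost in 3 of 6 fits that left out 1 library. These pairs were picked after their values were seen.

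CRK40 and CRK42, both outside the block, were 2 of the 5 tested members called in neither direction in wild-type seedlings at 1 h against 0 h. CRK40 held 30.5, 45.9 and 45.7 CPM at 1 h, against 56.0, 41.3 and 60.4 CPM at 0 h in the wild type, and CRK42 held 5.65, 13.7 and 10.1 CPM at 1 h, against 14.3, 10.8 and 12.1 CPM at 0 h. The groups overlapped in both genes, and neither was called in the main fit. CRK40 was called lower without wild-type 0 h replicate 2 (-0.52, adjusted p = 0.0438 in edgeR). CRK42 was called lower without wild-type 1 h replicate 2 (-0.68, adjusted p = 0.0265 in edgeR). In OXAITF1 leaves CRK40 held 48.1 and 56.7 CPM, against 99.8 and 70.7 CPM in wild-type leaves, without overlap and without passing the test (log2 fold change -0.70 ± 0.22, adjusted p = 0.0882 in edgeR).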
